A study of Arabidopsis thaliana with 24 samples.

Results

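The 36 genes described here encode enzymes and transporters of leaf starch metabolism in Arabidopsis thaliana, 16 acting in synthesis and 20 in degradation. They were listed by known function among the 27655 loci of the count files, and the counts of all transcript models of a locus were summed. Leaf starch is made in chloroplasts by day and broken down at night. ADP-glucose pyrophosphorylase supplies ADP-glucose, starch synthases and branching enzymes build the glucan, and debranching enzymes trim it. Breakdown starts with phosphorylation of the granule surface by dikinases, continues through phosphatases, β-amylases and debranching enzymes, and ends with export of maltose and glucose to the cytosol. Several of these genes are known to be under control of the circadian clock.

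Polyadenylated RNA was counted from whole seedlings of 14 days, grown on soil, by sequencing short tags from transcript 3′ ends. The 24 libraries formed 8 groups with 3 replicates each: 4 growth settings, each harvested in the morning (zeitgeber time 4, ZT4) and in the evening (ZT16). The usual indoor long day was called lab LD. In LD+FR+TEMP, the indoor long day had 730 nm diodes that brought the red to far-red ratio to 1 and a temperature programme from 15.8 to 22.8 °C, which stood at 17.9 °C at ZT4, 19.8 °C at ZT15 and 18.3 °C at ZT17. Natural 2013 and natural 2014 were seedlings kept outdoors in June 2013 and July 2014, in an open cage under fabric that dimmed the sun and left the red to far-red ratio as it was. The labels name no genotype and give no separate planting for the replicates of a group, so the p-values speak of the spread among these libraries, which may be technical. Light, temperature, month and year differ together between the outdoor and indoor groups and cannot be told apart. The same holds for far-red light and temperature between LD+FR+TEMP and lab LD, and for month and year between the outdoor groups.

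Total counts ran from 6543615 to 10711582 in the outdoor libraries and from 12069812 to 16089156 in the indoor ones. All 36 members passed the filter on low counts, among 18797 genes tested in 1 edgeR quasi-likelihood fit. Levels are given as CPM, read counts scaled to a common library size with TMM factors, and log2 fold changes with their standard errors. A member was called when its Benjamini-Hochberg adjusted p-value, taken over every tested gene, was under 0.05. Markers of leaf and root were both present. The summed level of 9 leaf markers ran from 22558.8 to 24301.1 CPM in lab LD at ZT16 and from 49126.9 to 51426.9 CPM in natural 2013 at ZT4, the extremes of the group means, and was higher at ZT4 in each setting. The summed level of 12 root markers ran from 250.8 to 446.9 CPM; CASP5, which did not pass the filter, was at 0 in 4 libraries, EXPA18 in 3 and EXPA7 in 1. Of the 11 root markers tested, 7 were lower at ZT16 than at ZT4 in natural 2013 (17.8% of all genes were lower). At ZT16, 5 were lower in natural 2013 than in lab LD (14.3% of all genes). LD+FR+TEMP exceeded lab LD in 5 at ZT16 (1.65% of all genes). In each other comparison at most 3 were called. Of the 9 leaf markers, 6, 5, 7 and 5 were lower in the evening in the settings in the order given above. Over all genes, 11.5%, 12.1%, 17.8% and 22.5% were lower. The leaf and root markers were listed as signs of tissue. The part of these markers in the results was not tested, and in whole seedlings fewer cells of a type and less RNA per cell cannot be told apart. Natural 2014 ZT4 replicate 1 stood apart from its group, with a chi-square per gene of 26.8 and 16.5 against replicates 2 and 3, which differed from each other by 9.51. Other groups were loose as well. Lab LD ZT4 replicate 3 had 17.5 and 17.2 against replicates 1 and 2, which differed by 11.4. LD+FR+TEMP ZT16 replicates 2 and 3 differed by 22.8.

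In each of the 4 settings, genes of starch degradation were mostly higher in the evening than in the morning, and GBSS1, which makes amylose on the granule, was far higher in the morning. Of the 36 members, 18 were higher and 4 lower at ZT16 than at ZT4 in lab LD, where 10.4% of all genes tested were called higher, 11.5% lower and 21.9% in either direction. The counts were 16 and 5 in LD+FR+TEMP (all genes 11.4% and 12.1%, together 23.5%), 21 and 7 in natural 2013 (17.6% and 17.8%, together 35.5%) and 18 and 9 in natural 2014 (23.2% and 22.5%, together 45.7%). Degradation genes accounted for 12, 12, 14 and 13 of the higher calls in these settings and synthesis genes for 6, 4, 7 and 5. The median log2 fold change of the 20 degradation genes was 0.64, 0.64, 1.23 and 0.77, that of the 16 synthesis genes 0.13, -0.07, 0.24 and 0.02, and that of all genes tested -0.02, 0.01, 0.01 and 0.04.

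A call in the same direction in all 4 settings was made for 10 members that were higher at ZT16, a pattern of 3.95% of all genes, and for 4 that were lower, a pattern of 4.01%. The 10 were the starch synthase SS4, the branching enzyme SBE2.1 and the plastid phosphoglucomutase PGM1 from synthesis, and GWD1, PWD, SEX4, ISA3, DPE1, DPE2 and PHS2 from degradation. The 4 were GBSS1 and the starch synthase SS2 from synthesis, and BAM1 and BAM9 from degradation. APL4, SS1 and SBE2.2 passed in no setting (36.9% of all genes did so), and PGI1, LSF1 and BAM3 were called in opposite directions in different settings (4.78% of all genes).

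**Figure D1:**
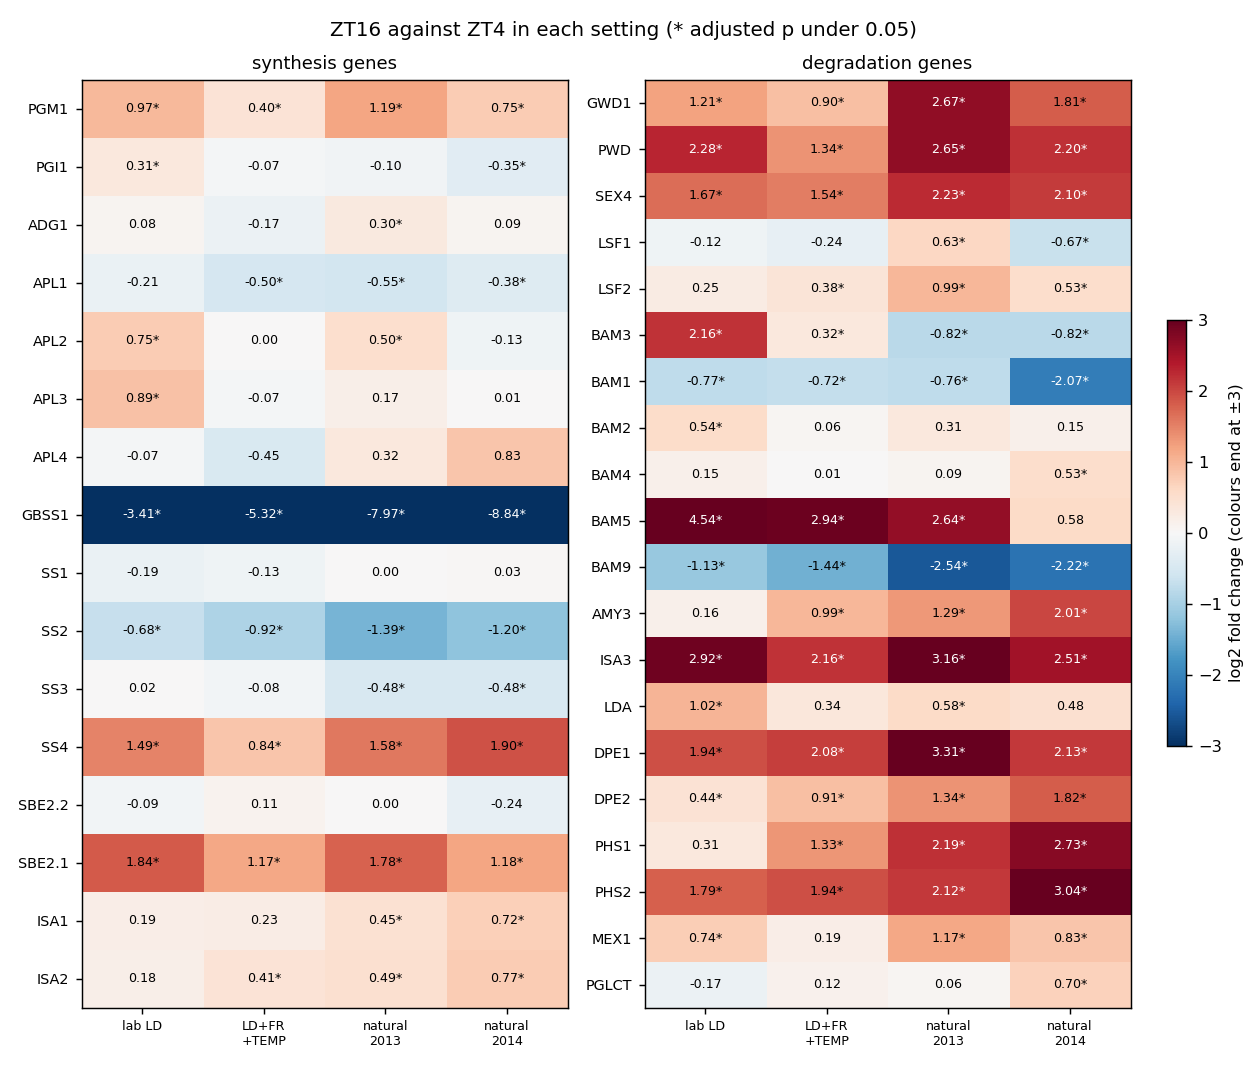
Log2 fold change of ZT16 against ZT4 (colour and printed value) for the 16 synthesis genes and the 20 degradation genes in each growth setting, with an asterisk where the adjusted p was under 0.05. GBSS1 is lower at ZT16 in all 4 columns, from -3.41 in lab LD to -8.84 in natural 2014, and BAM3 runs from 2.16 in lab LD to -0.82 in both outdoor years.

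GBSS1 (AT1G32900), the granule-bound starch synthase, showed the largest change of the members between the times of day in LD+FR+TEMP, natural 2013 and natural 2014, and came after BAM5 in lab LD. Indoors, GBSS1 had 72.9, 92.7 and 77.8 CPM at ZT4 and 6.91, 8.55 and 7.31 CPM at ZT16 in lab LD, and 142.9, 162 and 152.4 CPM at ZT4 and 3.09, 2.9 and 5.45 CPM at ZT16 in LD+FR+TEMP. Outdoors, GBSS1 had 174, 185.1 and 138.9 CPM at ZT4 and 0.433, 0.84 and 0.648 CPM at ZT16 in 2013, and 263.2, 309.7 and 355.4 CPM at ZT4 and 0.629, 1.03 and 0.306 CPM at ZT16 in 2014. The morning libraries were high and the evening libraries low in all 4 settings, with no overlap, and the evening libraries outdoors were the lowest. The evening level was -3.41 ± 0.18, adjusted p = 4.15e-14 against the morning in lab LD. It was -5.32 ± 0.19, adjusted p = 4.78e-17 in LD+FR+TEMP, -7.97 ± 0.27, adjusted p = 5.32e-18 in natural 2013 and -8.84 ± 0.26, adjusted p = 1.57e-19 in natural 2014. The outdoor evening levels rest on few reads. The 3 libraries held 15 GBSS1 reads in 2013 (95% exact Poisson interval 8.4 to 24.7, or 0.365 to 1.08 CPM) and 21 in 2014 (13 to 32.1, or 0.411 to 1.02 CPM). These intervals cover counting error alone, and they are wider than the ± values of the outdoor changes would give. Those ± values were derived from the F value and understate the error for so few reads.

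ISA3, PHS2 and DPE1 are shown beside GBSS1 because these were the first 4 by the summed rank of their adjusted p, among the members that are given here in every library and were called in 1 direction in all 4 settings, and GWD1 was added after its promoter had been searched. ISA3 (AT4G09020) is the debranching isoamylase of starch breakdown, PHS2 (AT3G46970) the cytosolic glucan phosphorylase, DPE1 (AT5G64860) the plastid disproportionating enzyme and GWD1 (AT1G10760) the glucan water dikinase that starts breakdown. The stretches run from 250 bases before to 25 bases after the gene start, 5′ to 3′ on the strand of the gene, from RefSeq (assembly TAIR10.1). The genes lie on the minus strand at chr1:11923842-11924116 (GBSS1), chr3:17306609-17306883 (PHS2), chr5:25928855-25929129 (DPE1) and chr1:3590904-3591178 (GWD1), and on the plus strand at chr4:5783659-5783933 (ISA3). Capitals mark matches to the evening element (AAAATATCT) and the G-box (CACGTG). SBE2.1 and BAM9 came before GWD1 by the summed rank but are not printed, and neither held an evening element. In ISA3 the evening element lies on the other strand and reads as its reverse complement, and a G-box 43 bases into the transcript lies outside the stretch printed.
GBSS1: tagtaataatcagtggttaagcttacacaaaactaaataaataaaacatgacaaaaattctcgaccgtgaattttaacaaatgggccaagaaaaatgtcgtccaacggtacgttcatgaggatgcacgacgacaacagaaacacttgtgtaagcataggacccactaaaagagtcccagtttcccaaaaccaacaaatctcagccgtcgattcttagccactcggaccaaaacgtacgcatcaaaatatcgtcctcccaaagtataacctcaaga
ISA3: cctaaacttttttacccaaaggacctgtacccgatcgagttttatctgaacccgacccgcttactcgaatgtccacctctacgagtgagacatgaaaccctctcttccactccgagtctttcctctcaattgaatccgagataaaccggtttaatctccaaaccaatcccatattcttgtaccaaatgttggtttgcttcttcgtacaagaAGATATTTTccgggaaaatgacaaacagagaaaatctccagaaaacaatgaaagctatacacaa
PHS2: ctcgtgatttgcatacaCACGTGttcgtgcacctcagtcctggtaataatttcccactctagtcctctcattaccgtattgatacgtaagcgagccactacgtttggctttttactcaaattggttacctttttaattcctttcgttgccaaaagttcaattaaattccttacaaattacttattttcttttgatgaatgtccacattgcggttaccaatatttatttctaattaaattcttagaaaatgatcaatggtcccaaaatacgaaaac
DPE1: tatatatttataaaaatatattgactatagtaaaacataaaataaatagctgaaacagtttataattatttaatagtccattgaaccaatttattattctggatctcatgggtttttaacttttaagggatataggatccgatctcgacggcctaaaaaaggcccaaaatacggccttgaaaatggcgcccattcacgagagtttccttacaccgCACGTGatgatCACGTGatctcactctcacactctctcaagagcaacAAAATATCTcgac
GWD1: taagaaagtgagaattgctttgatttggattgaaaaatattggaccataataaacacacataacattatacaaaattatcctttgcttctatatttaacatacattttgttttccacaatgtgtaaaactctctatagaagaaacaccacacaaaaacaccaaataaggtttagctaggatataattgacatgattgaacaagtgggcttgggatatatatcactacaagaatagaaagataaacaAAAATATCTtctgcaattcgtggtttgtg

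The evening element, a motif known from evening-phased clock genes, lay on either strand within 250 bases before to 50 bases after the start in 4 of 20 degradation genes (GWD1, PWD, ISA3 and DPE1) and 1 of 16 synthesis genes (PGM1). All 5 were among the members higher at ZT16 in all 4 settings. The other members with that pattern, SS4, SBE2.1, SEX4, DPE2 and PHS2, held none in the window. Of 27443 promoters of the same length, 2.82% held it. Its first base lay 4 bases before the start in GWD1, 33 before it in PWD, 39 before it in ISA3 and 202 before it in PGM1, and at base 13 of the transcript in DPE1. The G-box, bound by many light and clock factors, lay in 7 degradation and 5 synthesis genes against 7.68% of all promoters. The CCA1-binding site (AAAAATCT) lay in 2 synthesis genes and 1 degradation gene (7.88% of all promoters), the telo-box (AAACCCTA) in 2 degradation genes (6.22%), and the TATCCA element in 2 synthesis and 3 degradation genes (16.1%). Both strands were searched for each motif. The GBSS1 window held none of these letters, and a match is a description of sequence and not a binding site.

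**Figure D2:**
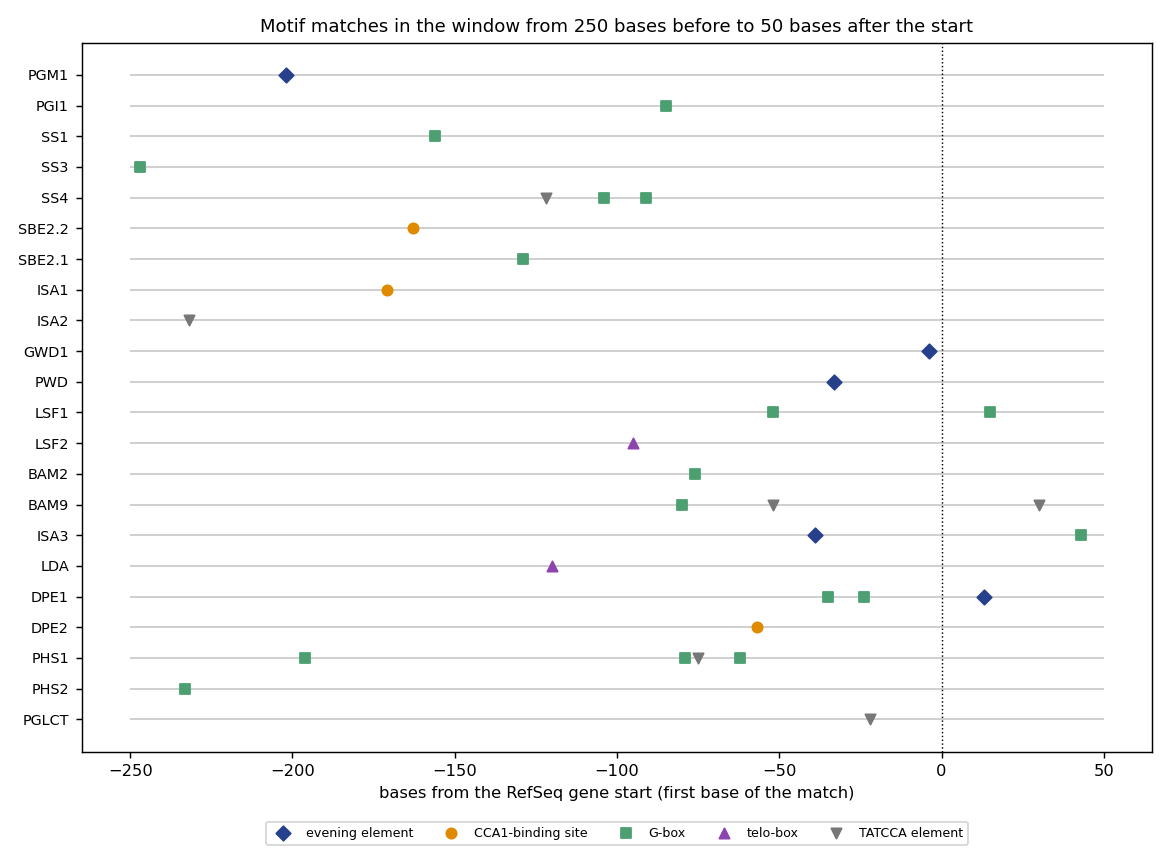
First base of each motif match (symbols) in the window from 250 bases before to 50 bases after the RefSeq gene start, for the members with at least 1 match. Evening elements (diamonds) lie close to the start in GWD1, PWD, ISA3 and DPE1 and 202 bases before it in PGM1.

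Among the other synthesis genes, SS4 (AT4G18240), the starch synthase of granule initiation, and SBE2.1 (AT2G36390), a branching enzyme, were evening genes. Indoors, SS4 had 14.7, 13.4 and 12.1 CPM at ZT4 and 39.6, 37 and 36.3 CPM at ZT16 in lab LD, and 16.3, 22.9 and 15.4 CPM at ZT4 and 29.9, 31.2 and 36.1 CPM at ZT16 in LD+FR+TEMP. Outdoors, SS4 had 10.1, 9.25 and 9.06 CPM at ZT4 and 29.5, 26.6 and 28.8 CPM at ZT16 in 2013, and 8.45, 7.71 and 10 CPM at ZT4 and 36.6, 35.9 and 25.1 CPM at ZT16 in 2014. SS4 was high at ZT16 and low at ZT4 in each setting without overlap, by 1.49 ± 0.14, adjusted p = 7.04e-09 in lab LD, 0.84 ± 0.14, adjusted p = 4.73e-05 in LD+FR+TEMP, 1.58 ± 0.16, adjusted p = 1.48e-08 in natural 2013 and 1.90 ± 0.16, adjusted p = 3.53e-10 in natural 2014. Indoors, SBE2.1 had 12.2, 16.1 and 12.4 CPM at ZT4 and 46, 46.3 and 52.7 CPM at ZT16 in lab LD, and 16.4, 16.1 and 18.6 CPM at ZT4 and 36.7, 40.9 and 37.2 CPM at ZT16 in LD+FR+TEMP. Outdoors, SBE2.1 had 13.6, 15 and 13.4 CPM at ZT4 and 45.7, 50.3 and 47.6 CPM at ZT16 in 2013, and 18.8, 21.6 and 22.3 CPM at ZT4 and 49.9, 47.8 and 44.5 CPM at ZT16 in 2014. The SBE2.1 groups did not overlap between the times in any setting, and the differences were 1.84 ± 0.11, adjusted p = 6.77e-13 in lab LD, 1.17 ± 0.11, adjusted p = 2.94e-09 in LD+FR+TEMP, 1.78 ± 0.12, adjusted p = 2.53e-12 in natural 2013 and 1.18 ± 0.11, adjusted p = 1.77e-09 in natural 2014. Its sister branching enzyme SBE2.2 (AT5G03650) ranged from 29.5 to 49.8 CPM over all 24 libraries and passed in no setting.

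PGM1 (AT5G51820), the plastid phosphoglucomutase that feeds synthesis, was also higher in the evening, by 0.97 ± 0.13, adjusted p = 2.3e-06 in lab LD, 0.40 ± 0.13, adjusted p = 0.0256 in LD+FR+TEMP, 1.19 ± 0.14, adjusted p = 1.31e-07 in natural 2013 and 0.75 ± 0.14, adjusted p = 5.18e-05 in natural 2014. In LD+FR+TEMP that call was lost without ZT4 replicate 1 or 3 or ZT16 replicate 1 or 3 (adjusted p = 0.0574, 0.104, 0.0604 and 0.0973, edgeR). SS2 (AT3G01180), a soluble starch synthase, went the other way, by -0.68 ± 0.11, adjusted p = 1.9e-05 in lab LD, -0.92 ± 0.11, adjusted p = 1.92e-07 in LD+FR+TEMP, -1.39 ± 0.11, adjusted p = 2.36e-10 in natural 2013 and -1.20 ± 0.11, adjusted p = 1.36e-09 in natural 2014. SS3 (AT1G11720), another soluble synthase, was lower in the evening in natural 2013 (-0.48 ± 0.13, adjusted p = 0.00545) and natural 2014 (-0.48 ± 0.13, adjusted p = 0.00484), with 0.02 ± 0.12 and -0.08 ± 0.12 in lab LD and LD+FR+TEMP, which did not pass.

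SS1 (AT5G24300), a soluble starch synthase, was not called between the times of day in any setting. Indoors, SS1 had 86.5, 84.6 and 91.1 CPM at ZT4 and 75.5, 77.2 and 77.7 CPM at ZT16 in lab LD, and 91.7, 89.6 and 85.3 CPM at ZT4 and 82.2, 90.4 and 71.6 CPM at ZT16 in LD+FR+TEMP. Outdoors, SS1 had 115.2, 100.9 and 98.7 CPM at ZT4 and 102, 101.4 and 112.5 CPM at ZT16 in 2013, and 99.8, 112.6 and 109.2 CPM at ZT4 and 114.1, 108.1 and 105.8 CPM at ZT16 in 2014. The outdoor libraries were the higher ones at both times. The evening difference was -0.19 ± 0.09 in lab LD, where the times did not overlap, -0.13 ± 0.09 in LD+FR+TEMP, 0.00 ± 0.09 in natural 2013 and 0.03 ± 0.09 in natural 2014. PGI1 (AT4G24620), the plastid phosphoglucose isomerase, was higher in the evening in lab LD (0.31 ± 0.09, adjusted p = 0.00849, lost without ZT4 replicate 1 at adjusted p = 0.0571, edgeR) and lower in natural 2014 (-0.35 ± 0.09, adjusted p = 0.0021).

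ADP-glucose pyrophosphorylase, the committed step of starch synthesis, changed little in its small subunit ADG1 (AT5G48300). Indoors, ADG1 had 114.3, 118.8 and 131.9 CPM at ZT4 and 131.4, 127.3 and 127.7 CPM at ZT16 in lab LD, and 126.2, 131.5 and 113.5 CPM at ZT4 and 115.7, 87.7 and 126.3 CPM at ZT16 in LD+FR+TEMP. Outdoors, ADG1 had 86.8, 97.2 and 95.3 CPM at ZT4 and 109, 119.4 and 115.1 CPM at ZT16 in 2013, and 127, 102.3 and 115.3 CPM at ZT4 and 129.6, 124.7 and 111.2 CPM at ZT16 in 2014. The times overlapped in every setting except natural 2013, where ZT16 was the higher group (0.30 ± 0.11, adjusted p = 0.0401). That call was lost without ZT4 replicate 1, 2 or 3 or ZT16 replicate 2 or 3 (adjusted p between 0.0547 and 0.15, edgeR). The other values were 0.08 ± 0.11 in lab LD, -0.17 ± 0.11 in LD+FR+TEMP and 0.09 ± 0.11 in natural 2014. Of the large subunits, APL1 (AT5G19220) was lower in the evening in LD+FR+TEMP (-0.50 ± 0.09, adjusted p = 0.000124), natural 2013 (-0.55 ± 0.09, adjusted p = 2.54e-05) and natural 2014 (-0.38 ± 0.09, adjusted p = 0.00116). APL2 (AT1G27680) and APL3 (AT4G39210) were higher in the evening in lab LD (0.75 ± 0.16, adjusted p = 0.000777 and 0.89 ± 0.18, adjusted p = 0.000557). APL2 also passed in natural 2013 (0.50 ± 0.20, adjusted p = 0.0475), a call lost without ZT4 replicate 1 (0.33, adjusted p = 0.254) or replicate 3, or any ZT16 replicate (adjusted p between 0.0503 and 0.179, edgeR). APL4 (AT2G21590) held 0.454 to 2.53 CPM over all libraries and passed in no setting.

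The debranching pair of synthesis is ISA1 (AT2G39930), which trims the growing glucan, and ISA2 (AT1G03310), its partner without activity of its own. Indoors, ISA2 had 18.9, 22.8 and 21.9 CPM at ZT4 and 22.6, 26.2 and 23.3 CPM at ZT16 in lab LD, and 16.9, 18.7 and 16 CPM at ZT4 and 22.5, 20.5 and 25.4 CPM at ZT16 in LD+FR+TEMP. Outdoors, ISA2 had 12.8, 15.5 and 12.4 CPM at ZT4 and 19.1, 20.3 and 17.5 CPM at ZT16 in 2013, and 11.8, 9.71 and 11.5 CPM at ZT4 and 20.1, 18.3 and 17.6 CPM at ZT16 in 2014. ISA2 was higher in the evening, without overlap, in LD+FR+TEMP (0.41 ± 0.11, adjusted p = 0.0089), natural 2013 (0.49 ± 0.13, adjusted p = 0.00352) and natural 2014 (0.77 ± 0.13, adjusted p = 2.44e-05). The times overlapped in lab LD (0.18 ± 0.11), and the LD+FR+TEMP call was lost without ZT16 replicate 3 (adjusted p = 0.0569, edgeR). ISA1 passed in natural 2014 (0.72 ± 0.15, adjusted p = 0.000336) and in natural 2013 (0.45 ± 0.15, adjusted p = 0.0218, lost without ZT4 replicate 1 or 2 or ZT16 replicate 3 at adjusted p = 0.0598, 0.109 and 0.0603, edgeR).

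Starch breakdown begins with the dikinases GWD1 and PWD (AT5G26570), which phosphorylate the granule, and both were evening genes. Indoors, GWD1 had 12.6, 16.4 and 13.1 CPM at ZT4 and 31.6, 33.7 and 32.1 CPM at ZT16 in lab LD, and 14.3, 17.6 and 13.8 CPM at ZT4 and 27.7, 26.1 and 31.1 CPM at ZT16 in LD+FR+TEMP. Outdoors, GWD1 had 4.28, 6.43 and 5.4 CPM at ZT4 and 37.4, 31.4 and 32.5 CPM at ZT16 in 2013, and 10.3, 7.57 and 8.79 CPM at ZT4 and 27.5, 35.8 and 29.9 CPM at ZT16 in 2014. Evening GWD1 levels were alike in the 4 settings, while the morning libraries of 2013 were the lowest. ZT16 exceeded ZT4 by 1.21 ± 0.13, adjusted p = 6.69e-08 in lab LD, 0.90 ± 0.13, adjusted p = 7.8e-06 in LD+FR+TEMP, 2.67 ± 0.16, adjusted p = 5.58e-13 in natural 2013 and 1.81 ± 0.15, adjusted p = 2.16e-10 in natural 2014. PWD was higher by 2.28 ± 0.13, adjusted p = 5.59e-13 in lab LD, 1.34 ± 0.13, adjusted p = 7.11e-09 in LD+FR+TEMP, 2.65 ± 0.15, adjusted p = 2.09e-13 in natural 2013 and 2.2 ± 0.15, adjusted p = 2.39e-12 in natural 2014.

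The phosphatase SEX4 (AT3G52180), which removes the phosphate again so that hydrolysis can proceed, was higher in the evening by 1.67 ± 0.11, adjusted p = 5.28e-12 in lab LD, 1.54 ± 0.11, adjusted p = 3.07e-11 in LD+FR+TEMP, 2.23 ± 0.12, adjusted p = 9.27e-14 in natural 2013 and 2.1 ± 0.13, adjusted p = 4.69e-13 in natural 2014. LSF2 (AT3G10940), another glucan phosphatase, passed in natural 2013 (0.99 ± 0.13, adjusted p = 1.76e-06), natural 2014 (0.53 ± 0.13, adjusted p = 0.00141) and LD+FR+TEMP (0.38 ± 0.12, adjusted p = 0.0245). The last of these was lost without ZT4 replicate 1 or 2 or ZT16 replicate 3 (adjusted p = 0.0693, 0.124 and 0.114, edgeR). LSF1 (AT3G01510), a relative of SEX4 needed for normal breakdown, is uncertain, because its 3′ end overlaps CA1 on the same strand over 343 bases and CA1 held 1421260 counts in all libraries against 2740 for LSF1. This limit holds for each LSF1 value given here and below. Indoors, LSF1 had 8.26, 8.26 and 10.1 CPM at ZT4 and 7.34, 7.89 and 9.19 CPM at ZT16 in lab LD, and 10.3, 10 and 10.1 CPM at ZT4 and 7.88, 10.2 and 7.52 CPM at ZT16 in LD+FR+TEMP. Outdoors, LSF1 had 8.67, 9.4 and 7.66 CPM at ZT4 and 11.3, 14.4 and 13.7 CPM at ZT16 in 2013, and 16.2, 14 and 17 CPM at ZT4 and 10.1, 9.62 and 9.99 CPM at ZT16 in 2014. LSF1 was the higher at ZT16 in 2013 (0.63 ± 0.15, adjusted p = 0.00131) and the higher at ZT4 in 2014 (-0.67 ± 0.14, adjusted p = 0.000277), and the times overlapped indoors.

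The β-amylases, which release maltose from the glucan, did not share a pattern. BAM3 (AT4G17090), the main plastid β-amylase of leaves, was an evening gene in lab LD and a morning gene outdoors. Indoors, BAM3 had 94, 80.3 and 77.6 CPM at ZT4 and 400.2, 356.8 and 369.5 CPM at ZT16 in lab LD, and 225.5, 241.1 and 223.8 CPM at ZT4 and 277, 291.7 and 291.6 CPM at ZT16 in LD+FR+TEMP. Outdoors, BAM3 had 313.6, 303.4 and 259.4 CPM at ZT4 and 162.3, 157.7 and 175.4 CPM at ZT16 in 2013, and 294.3, 415.5 and 356.6 CPM at ZT4 and 208.6, 196 and 199.9 CPM at ZT16 in 2014. The times did not overlap in any setting, with the evening libraries high indoors and the morning libraries high outdoors. The evening differed by 2.16 ± 0.11, adjusted p = 2.35e-14 in lab LD, 0.32 ± 0.10, adjusted p = 0.0261 in LD+FR+TEMP, -0.82 ± 0.11, adjusted p = 6.52e-07 in natural 2013 and -0.82 ± 0.10, adjusted p = 3.41e-07 in natural 2014. In LD+FR+TEMP the call was lost without ZT4 replicate 1 or 3 or ZT16 replicate 2 or 3 (adjusted p = 0.0811, 0.0776, 0.0714 and 0.0606, edgeR).

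BAM1 (AT3G23920), a plastid β-amylase, was a morning gene in every setting. Indoors, BAM1 had 91.8, 104 and 86.5 CPM at ZT4 and 53.5, 63.6 and 48.5 CPM at ZT16 in lab LD, and 86.5, 83.6 and 84.8 CPM at ZT4 and 48.2, 59.6 and 47.1 CPM at ZT16 in LD+FR+TEMP. Outdoors, BAM1 had 91.5, 84 and 66.8 CPM at ZT4 and 44.5, 43.7 and 54.4 CPM at ZT16 in 2013, and 280.9, 157 and 208.5 CPM at ZT4 and 58.4, 46.8 and 48.1 CPM at ZT16 in 2014. Evening levels were alike, and the 3 morning libraries of 2014 stood above all others. The evening was lower by -0.77 ± 0.16, adjusted p = 0.000618 in lab LD, -0.72 ± 0.16, adjusted p = 0.00133 in LD+FR+TEMP, -0.76 ± 0.16, adjusted p = 0.000661 in natural 2013 and -2.07 ± 0.16, adjusted p = 6.66e-11 in natural 2014. Without natural 2014 ZT4 replicate 1, which stood apart from its group, the last value was -1.84 (adjusted p = 1.47e-10, edgeR).

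BAM9 (AT5G18670), a β-amylase-like protein of the plastid, was also a morning gene. Indoors, BAM9 had 21.8, 19.1 and 23.4 CPM at ZT4 and 9.24, 9.51 and 10.6 CPM at ZT16 in lab LD, and 21, 22.1 and 17.9 CPM at ZT4 and 8.34, 5.3 and 8.77 CPM at ZT16 in LD+FR+TEMP. Outdoors, BAM9 had 43.9, 47.3 and 45.8 CPM at ZT4 and 6.65, 7.56 and 9.2 CPM at ZT16 in 2013, and 78.9, 74.7 and 52.4 CPM at ZT4 and 15.1, 13 and 16.1 CPM at ZT16 in 2014. The morning libraries outdoors lay above all other libraries, and the times did not overlap in any setting. The evening was lower by -1.13 ± 0.16, adjusted p = 4.34e-06 in lab LD, -1.44 ± 0.16, adjusted p = 1.42e-07 in LD+FR+TEMP, -2.54 ± 0.18, adjusted p = 9.54e-12 in natural 2013 and -2.22 ± 0.16, adjusted p = 8.55e-12 in natural 2014.

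BAM5 (AT4G15210), a β-amylase found outside the plastid, was low in the mornings of all settings but natural 2014. Indoors, BAM5 had 0.924, 0.409 and 0.468 CPM at ZT4 and 8.44, 18.2 and 17.6 CPM at ZT16 in lab LD, and 0.615, 0.507 and 0.617 CPM at ZT4 and 4.79, 4.87 and 3.95 CPM at ZT16 in LD+FR+TEMP. Outdoors, BAM5 had 0.925, 1.72 and 1.94 CPM at ZT4 and 9.1, 7.08 and 12.4 CPM at ZT16 in 2013, and 6.25, 1.43 and 5.61 CPM at ZT4 and 8.54, 5.04 and 5.91 CPM at ZT16 in 2014. The times overlapped in natural 2014 (0.58 ± 0.36, adjusted p = 0.198) and were apart in the other settings. Without natural 2014 ZT4 replicate 1 that value was 0.91 (adjusted p = 0.0844, edgeR). At ZT16 its level was higher by 4.54 ± 0.40, adjusted p = 1.69e-09 in lab LD, 2.94 ± 0.44, adjusted p = 1.3e-05 in LD+FR+TEMP and 2.64 ± 0.41, adjusted p = 1.3e-05 in natural 2013. Of the remaining plastid β-amylase genes, BAM2 (AT4G00490) passed in lab LD (0.54 ± 0.13, adjusted p = 0.00396) and BAM4 (AT5G55700), a regulator of the family, in natural 2014 (0.53 ± 0.18, adjusted p = 0.0169). The BAM4 value fell to 0.35 without ZT4 replicate 3 (adjusted p = 0.137) and did not pass without ZT16 replicate 1 (adjusted p = 0.0556, edgeR). BAM4 is also uncertain, because Tic20-V overlaps its 3′ end on the opposite strand and held 75976 counts against 2097, and the strand used in counting is not given in the sources used here. Opposite-strand genes also overlap the 3′ ends of other members. Among them are BAM9 (TLP11, 33 bases, 6285 counts against 5686) and BAM2 (AT4G00500, 104 bases, 1594 counts against 5625).

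ISA3, the isoamylase that debranches starch during breakdown, was an evening gene throughout. Indoors, ISA3 had 2.47, 2.7 and 4.14 CPM at ZT4 and 24.4, 23 and 22.5 CPM at ZT16 in lab LD, and 4.71, 4.86 and 5.28 CPM at ZT4 and 21.1, 21.7 and 23.5 CPM at ZT16 in LD+FR+TEMP. Outdoors, ISA3 had 2.2, 1.72 and 2.27 CPM at ZT4 and 19.8, 17.9 and 18.9 CPM at ZT16 in 2013, and 2.87, 2.43 and 2.42 CPM at ZT4 and 15, 14.5 and 14.5 CPM at ZT16 in 2014. Every ZT16 library was above 14 CPM and every ZT4 library below 6 CPM. The evening was higher by 2.92 ± 0.13, adjusted p = 2.54e-15 in lab LD, 2.16 ± 0.12, adjusted p = 3.35e-13 in LD+FR+TEMP, 3.16 ± 0.16, adjusted p = 1.97e-14 in natural 2013 and 2.51 ± 0.16, adjusted p = 1.58e-12 in natural 2014. LDA (AT5G04360), the limit dextrinase that shares this work, passed in lab LD (1.02 ± 0.18, adjusted p = 0.000113) and natural 2013 (0.58 ± 0.21, adjusted p = 0.0315). The latter was lost without ZT4 replicate 1 or 3 or ZT16 replicate 2 (adjusted p = 0.104, 0.096 and 0.208, edgeR).

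DPE1, which rearranges short glucans in the plastid, was an evening gene with its lowest mornings in 2013. Indoors, DPE1 had 9.37, 5.64 and 8.66 CPM at ZT4 and 29.6, 30.2 and 31.7 CPM at ZT16 in lab LD, and 7.17, 7.46 and 8.02 CPM at ZT4 and 30.4, 33 and 32.1 CPM at ZT16 in LD+FR+TEMP. Outdoors, DPE1 had 3.12, 4.39 and 3.13 CPM at ZT4 and 33.5, 32.6 and 37.5 CPM at ZT16 in 2013, and 7.94, 6.86 and 6.06 CPM at ZT4 and 29.1, 32.5 and 29.7 CPM at ZT16 in 2014. The evening libraries of the 4 settings shared a range of 29.1 to 37.5 CPM. ZT16 exceeded ZT4 by 1.94 ± 0.13, adjusted p = 9.99e-12 in lab LD, 2.08 ± 0.13, adjusted p = 2.95e-12 in LD+FR+TEMP, 3.31 ± 0.16, adjusted p = 8.78e-15 in natural 2013 and 2.13 ± 0.15, adjusted p = 6.08e-12 in natural 2014.

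DPE2 (AT2G40840), the cytosolic glucosyltransferase that uses the exported maltose, showed its smallest change in lab LD. Indoors, DPE2 had 20.9, 24.9 and 31.1 CPM at ZT4 and 35.5, 33.2 and 35.3 CPM at ZT16 in lab LD, and 19.9, 19.9 and 19.7 CPM at ZT4 and 38.8, 32.2 and 40.7 CPM at ZT16 in LD+FR+TEMP. Outdoors, DPE2 had 11.6, 14.6 and 13.3 CPM at ZT4 and 29.2, 37.8 and 32.4 CPM at ZT16 in 2013, and 6.76, 6.86 and 11.5 CPM at ZT4 and 33.2, 27.7 and 28.1 CPM at ZT16 in 2014. The times did not overlap in any setting, and the mornings were lowest outdoors. At ZT16 its level was higher by 0.44 ± 0.14, adjusted p = 0.0272 in lab LD, 0.91 ± 0.14, adjusted p = 2.87e-05 in LD+FR+TEMP, 1.34 ± 0.16, adjusted p = 2.7e-07 in natural 2013 and 1.82 ± 0.18, adjusted p = 2.57e-09 in natural 2014. The lab LD call was lost without ZT4 replicate 1 or 2 or ZT16 replicate 1 or 3 (adjusted p = 0.165, 0.0706, 0.0779 and 0.0738, edgeR).

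The phosphorylases PHS1 (AT3G29320), in the plastid, and PHS2, in the cytosol, release glucose-1-phosphate from glucans. Indoors, PHS1 had 43.1, 48.5 and 48.9 CPM at ZT4 and 57.1, 60.9 and 55.8 CPM at ZT16 in lab LD, and 25.9, 25.4 and 23.4 CPM at ZT4 and 59.2, 63 and 65.7 CPM at ZT16 in LD+FR+TEMP. Outdoors, PHS1 had 10.5, 15.5 and 13.6 CPM at ZT4 and 64.6, 59.8 and 55.5 CPM at ZT16 in 2013, and 8.28, 7.14 and 11.1 CPM at ZT4 and 61.4, 61.4 and 52.5 CPM at ZT16 in 2014. Evening PHS1 levels shared a range of 52.5 to 65.7 CPM in the 4 settings, and the morning libraries were lower in LD+FR+TEMP and lowest outdoors. The difference in lab LD did not pass (0.31 ± 0.11, adjusted p = 0.0508). PHS1 was higher in the evening by 1.33 ± 0.12, adjusted p = 1.45e-09 in LD+FR+TEMP, 2.19 ± 0.13, adjusted p = 4.31e-13 in natural 2013 and 2.73 ± 0.14, adjusted p = 1.09e-14 in natural 2014. Indoors, PHS2 had 26.9, 32.1 and 37.3 CPM at ZT4 and 105.6, 112.2 and 114.5 CPM at ZT16 in lab LD, and 34.5, 29.1 and 37.6 CPM at ZT4 and 128.3, 138.1 and 121.9 CPM at ZT16 in LD+FR+TEMP. Outdoors, PHS2 had 23.4, 22.6 and 19 CPM at ZT4 and 92.9, 95.3 and 93.1 CPM at ZT16 in 2013, and 7.6, 7.71 and 8.18 CPM at ZT4 and 64.3, 69.7 and 60 CPM at ZT16 in 2014. PHS2 was lowest in the mornings of 2014 and did not overlap between the times in any setting. The evening was higher by 1.79 ± 0.11, adjusted p = 1.65e-12 in lab LD, 1.94 ± 0.11, adjusted p = 3.68e-13 in LD+FR+TEMP, 2.12 ± 0.12, adjusted p = 1.17e-13 in natural 2013 and 3.04 ± 0.14, adjusted p = 6.96e-16 in natural 2014.

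AMY3 (AT1G69830), the plastid α-amylase, ranged from 15.7 to 18.6 CPM in the lab LD morning and from 17.7 to 20.2 CPM in its evening. Its mornings were lower in the other settings, with 10.2 to 10.9 CPM in LD+FR+TEMP, 8.44 to 10.7 CPM in natural 2013 and 6 to 7.12 CPM in natural 2014. AMY3 was higher in the evening by 0.99 ± 0.14, adjusted p = 3.83e-06 in LD+FR+TEMP, 1.29 ± 0.15, adjusted p = 1.98e-07 in natural 2013 and 2.01 ± 0.16, adjusted p = 1.03e-10 in natural 2014, with 0.16 ± 0.13 in lab LD, which did not pass.

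MEX1 (AT5G17520), the maltose exporter of the chloroplast envelope, was an evening gene in 3 settings. Indoors, MEX1 had 23.2, 32.7 and 25.2 CPM at ZT4 and 51.4, 44.5 and 39.1 CPM at ZT16 in lab LD, and 27.5, 38.3 and 28.6 CPM at ZT4 and 38.1, 28.4 and 41.4 CPM at ZT16 in LD+FR+TEMP. Outdoors, MEX1 had 11.6, 13.9 and 14.4 CPM at ZT4 and 29.9, 30.2 and 29.6 CPM at ZT16 in 2013, and 19.1, 12.7 and 15 CPM at ZT4 and 28.9, 29.5 and 24.5 CPM at ZT16 in 2014. The times overlapped in LD+FR+TEMP (0.19 ± 0.15, adjusted p = 0.406), and the outdoor morning libraries were the lowest. ZT16 exceeded ZT4 by 0.74 ± 0.15, adjusted p = 0.000734 in lab LD, 1.17 ± 0.18, adjusted p = 8.65e-06 in natural 2013 and 0.83 ± 0.18, adjusted p = 0.000347 in natural 2014. PGLCT (AT5G16150), the plastidic glucose transporter, passed in natural 2014 (0.70 ± 0.10, adjusted p = 3.28e-06) and had -0.17 ± 0.10, 0.12 ± 0.10 and 0.06 ± 0.10 in the other settings.

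**Figure D3:**
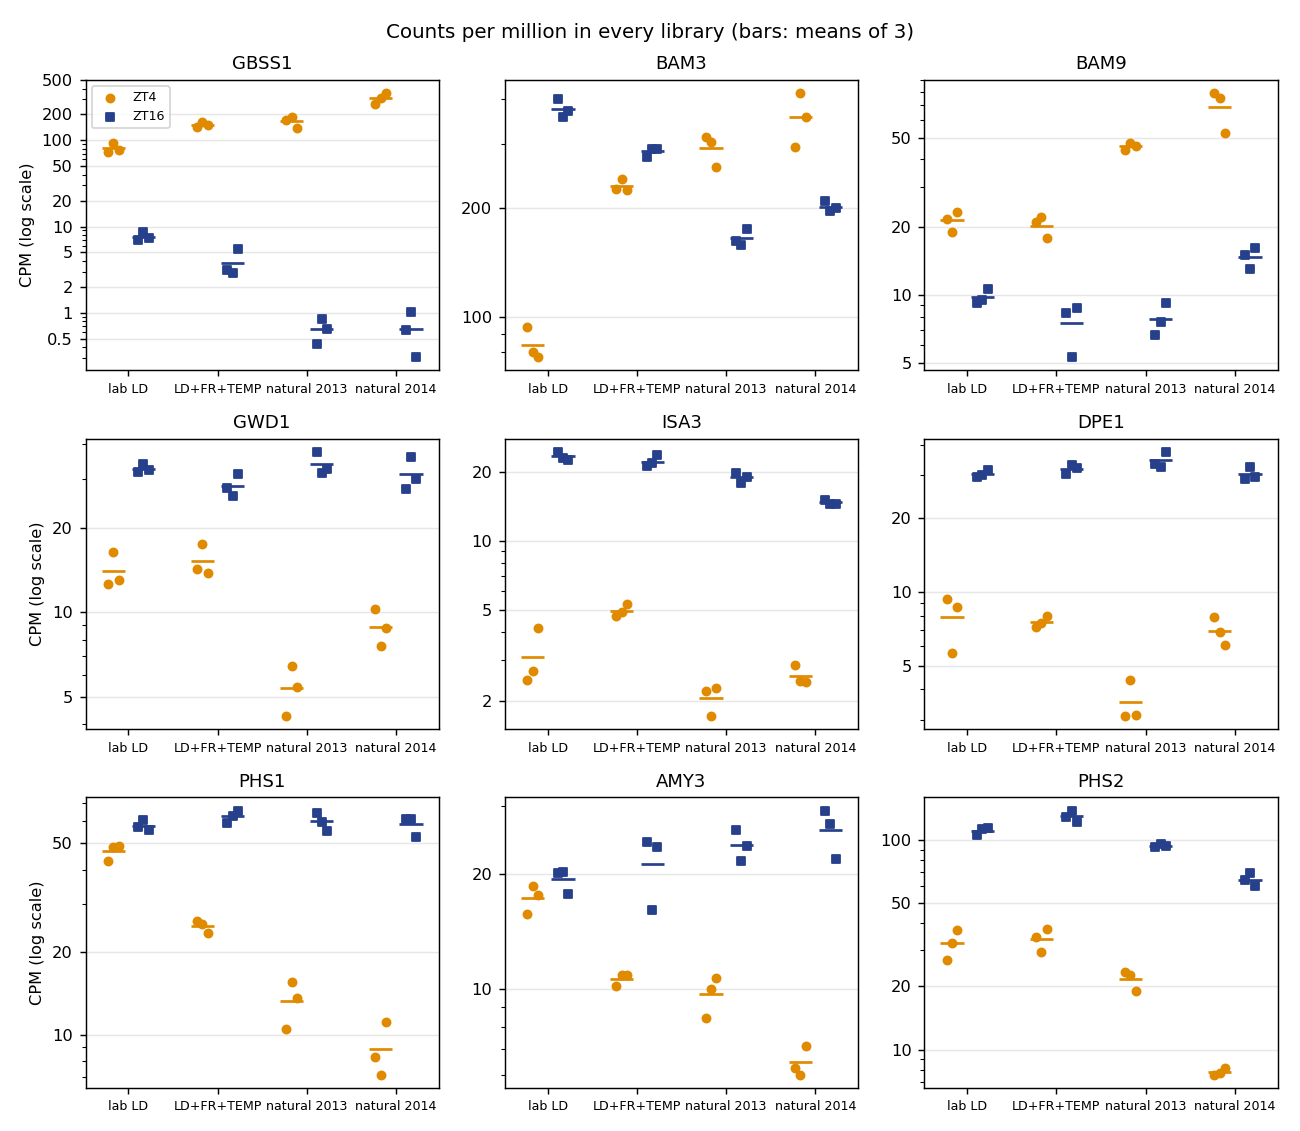
Level of 9 members in each library (points, 3 per group) and the group mean (bars) in CPM on a log axis, at ZT4 (circles) and ZT16 (squares) in the 4 settings. For PHS1 the squares stay between 52.5 and 65.7 CPM while the circles drop from 43.1 to 48.9 CPM in lab LD to 7.14 to 11.1 CPM in natural 2014, and BAM3 has its circles below its squares indoors and above them outdoors.

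The changes between the times of day of different settings come from separate libraries. Across the 36 members, these log2 fold changes had a Pearson correlation of 0.89 between lab LD and LD+FR+TEMP, 0.81 between lab LD and natural 2013 and 0.69 between lab LD and natural 2014. Among the other settings it was 0.96 between LD+FR+TEMP and natural 2013, 0.91 between LD+FR+TEMP and natural 2014 and 0.95 between the outdoor years. Over all 18797 genes the same values were 0.64, 0.52, 0.41, 0.63, 0.61 and 0.66. Genes are not independent replicates, and GBSS1 had the largest absolute change of the members in all settings but lab LD.

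The next comparisons asked how each setting differed from lab LD at the same time of day. They share the lab LD libraries, so their values are given side by side. In the morning, LD+FR+TEMP had more BAM3 and GBSS1 transcript than did lab LD and less PHS1 and AMY3. Of the members, 9 were higher and 3 lower (12 called), against 8.34% higher, 8.6% lower and 16.9% in either direction of all genes. From synthesis, GBSS1 (0.91 ± 0.15, adjusted p = 0.000139), PGI1 (0.34 ± 0.09, adjusted p = 0.0077), APL2 (0.61 ± 0.16, adjusted p = 0.00877), SS4 (0.43 ± 0.15, adjusted p = 0.0399) and SBE2.1 were higher. The APL2 call was lost without lab LD ZT4 replicate 1 (adjusted p = 0.067). SS4 fell to 0.24 without LD+FR+TEMP ZT4 replicate 2 (adjusted p = 0.314) and also missed the threshold without lab LD ZT4 replicate 2 or 3 (adjusted p = 0.0808 and 0.131, edgeR). SBE2.1 overlapped lab LD (0.33 ± 0.11, adjusted p = 0.0417) and was lost without any LD+FR+TEMP ZT4 replicate or lab LD ZT4 replicate 1 or 3 (adjusted p between 0.0544 and 0.177, edgeR).

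Among the degradation genes, BAM3 (1.45 ± 0.11, adjusted p = 2.04e-09), ISA3 (0.69 ± 0.15, adjusted p = 0.00213), PWD (0.55 ± 0.14, adjusted p = 0.00674) and BAM2 (0.47 ± 0.14, adjusted p = 0.0186) were higher in LD+FR+TEMP in the morning. PHS1 (-0.91 ± 0.12, adjusted p = 5.54e-06), AMY3 (-0.69 ± 0.14, adjusted p = 0.00102) and PGLCT (-0.35 ± 0.10, adjusted p = 0.0154) were lower. BAM2 fell to 0.31 without lab LD ZT4 replicate 1 (adjusted p = 0.133) and missed the threshold without lab LD ZT4 replicate 2 or LD+FR+TEMP ZT4 replicate 1 (adjusted p = 0.0619 and 0.0871, edgeR). PGLCT missed it without either replicate 1 (adjusted p = 0.0535 and 0.0507, edgeR). ADG1 (0.02 ± 0.11), GWD1 (0.12 ± 0.14), DPE2 (-0.37 ± 0.15) and MEX1 (0.22 ± 0.16) did not pass.

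In the evening, 3 members differed between LD+FR+TEMP and lab LD, all of them lower in LD+FR+TEMP, against 1.65% higher, 1% lower and 2.65% in either direction of all genes. They were BAM5 (-1.70 ± 0.29, adjusted p = 0.0023), GBSS1 (-0.99 ± 0.20, adjusted p = 0.0102) and BAM3 (-0.39 ± 0.10, adjusted p = 0.0407). GBSS1 missed the threshold without replicate 1 or 2 of LD+FR+TEMP or replicate 2 of lab LD at ZT16 (adjusted p = 0.0611, 0.0896 and 0.0512, edgeR). BAM3 missed it without replicate 1 or 2 of LD+FR+TEMP or any replicate of lab LD at ZT16 (adjusted p between 0.0699 and 0.202, edgeR). ADG1 (-0.23 ± 0.11), GWD1 (-0.20 ± 0.12), DPE2 (0.10 ± 0.14) and MEX1 (-0.32 ± 0.15) did not pass.

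Outdoors in the morning, PHS1, PHS2, DPE2, GWD1 and MEX1 were lower than in lab LD, while BAM3, BAM9 and GBSS1 were higher. In natural 2013, 5 members were higher and 16 lower than in lab LD at ZT4 (all genes 14.7% and 14.3%, together 29%). In natural 2014, 9 were higher and 14 lower (all genes 22.1% each way, together 44.3%). Of the degradation genes, 11 were lower in 2013 and 9 in 2014, with medians over the class of -0.57 and -0.26, against -0.03 and -0.05 over all genes tested.

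PHS1 was the degradation gene with the smallest adjusted p among those lower outdoors (-1.83 ± 0.13, adjusted p = 1.79e-10 in 2013 and -2.41 ± 0.14, adjusted p = 5.56e-13 in 2014). In 2013 it was followed by GWD1 (-1.40 ± 0.17, adjusted p = 8.3e-07), LSF2 (-0.98 ± 0.13, adjusted p = 4.38e-06) and DPE1 (-1.19 ± 0.18, adjusted p = 1.61e-05). In 2014 it was followed by PHS2 (-2.03 ± 0.14, adjusted p = 8.77e-12), PGLCT (-1.01 ± 0.10, adjusted p = 1.39e-08) and DPE2 (-1.61 ± 0.17, adjusted p = 4.08e-08). DPE2 was also lower in 2013 (-0.97 ± 0.16, adjusted p = 6.17e-05), GWD1 in 2014 (-0.66 ± 0.16, adjusted p = 0.00132) and MEX1 in both years (-1.02 ± 0.17, adjusted p = 8.34e-05 and -0.80 ± 0.17, adjusted p = 0.000583). The higher degradation genes were BAM3 (1.80 ± 0.11, adjusted p = 1.77e-11 in 2013 and 2.08 ± 0.11, adjusted p = 7.3e-14 in 2014) and BAM9 (1.09 ± 0.15, adjusted p = 6.89e-06 and 1.68 ± 0.15, adjusted p = 1.67e-09). In 2014 BAM1 (1.19 ± 0.16, adjusted p = 9.18e-07), LSF1 (0.82 ± 0.14, adjusted p = 2.26e-05) and BAM5 (2.78 ± 0.49, adjusted p = 5.46e-05) were higher as well. Without natural 2014 ZT4 replicate 1, BAM1 stood at 0.95 (adjusted p = 9.76e-06), BAM5 at 2.45 (adjusted p = 0.000928) and BAM9 at 1.56 (adjusted p = 2.03e-08, edgeR), and 23 members were called against 23 with it.

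Among the synthesis genes in the outdoor morning, GBSS1 was higher in 2013 (1.03 ± 0.15, adjusted p = 1.54e-05) and 2014 (1.93 ± 0.15, adjusted p = 2e-10). SS1 was higher as well (0.26 ± 0.09, adjusted p = 0.0305 and 0.29 ± 0.09, adjusted p = 0.0103). The SS1 call in 2013 was lost without natural 2013 ZT4 replicate 1 or lab LD ZT4 replicate 1 or 2 (adjusted p = 0.177, 0.0716 and 0.0959, edgeR). ISA2 was lower in both years (-0.65 ± 0.12, adjusted p = 0.000251 and -0.94 ± 0.13, adjusted p = 1.29e-06). In 2014, SBE2.1 (0.63 ± 0.12, adjusted p = 0.000101) and PGI1 (0.32 ± 0.09, adjusted p = 0.00435) were higher, and APL4 (-1.89 ± 0.34, adjusted p = 6.91e-05), APL3 (-1.08 ± 0.24, adjusted p = 0.000561) and SS4 (-0.62 ± 0.17, adjusted p = 0.00438) lower.

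In 2013, PGM1 (-0.48 ± 0.14, adjusted p = 0.009), ADG1 (-0.39 ± 0.11, adjusted p = 0.0108) and APL4 (-0.92 ± 0.28, adjusted p = 0.0159) were lower than in lab LD in the morning, and SS2 was higher (0.28 ± 0.11, adjusted p = 0.0462). These calls were close to the threshold. PGM1 was lost without natural 2013 ZT4 replicate 1 or lab LD ZT4 replicate 3 (adjusted p = 0.085 and 0.0566), ADG1 without natural 2013 ZT4 replicate 1 (adjusted p = 0.0587) and APL4 without either replicate 1 (adjusted p = 0.0621 and 0.0832, edgeR). SS2 fell to 0.18 without lab LD ZT4 replicate 3 (adjusted p = 0.218) and missed the threshold without any natural 2013 ZT4 replicate or lab LD ZT4 replicate 1 (adjusted p between 0.0678 and 0.109, edgeR). ADG1 in 2014 did not pass (-0.08 ± 0.11).

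In the outdoor evening, synthesis genes made up most of the lower calls. In natural 2013, 2 members were higher and 14 lower than in lab LD at ZT16 (16 called; all genes 14.8% and 14.3%, together 29.1%). In natural 2014, 3 were higher and 15 lower (all genes 18.5% and 17.4%, together 35.8%). In each year 9 of the lower members were synthesis genes. GBSS1 was lower in 2013 (-3.52 ± 0.34, adjusted p = 4.92e-08) and 2014 (-3.50 ± 0.31, adjusted p = 5.24e-09), followed by APL3 (-1.21 ± 0.20, adjusted p = 7.07e-05 and -1.97 ± 0.21, adjusted p = 8.1e-08). The ± values of GBSS1 are likely too small here as well, since its outdoor levels rest on few reads. APL2 was lower in both years (-0.60 ± 0.17, adjusted p = 0.00797 and -0.75 ± 0.16, adjusted p = 0.000742), as was the synthase SS3 in 2014 (-0.60 ± 0.13, adjusted p = 0.000606) and SS2 in 2013 (-0.43 ± 0.11, adjusted p = 0.00592, lost without natural 2013 ZT16 replicate 2 at adjusted p = 0.0629, edgeR). SS1 was the synthesis gene higher outdoors in the evening (0.46 ± 0.09, adjusted p = 0.000496 in 2013 and 0.51 ± 0.09, adjusted p = 9.36e-05 in 2014). ADG1 did not pass in either year (-0.17 ± 0.11 and -0.08 ± 0.11). Without natural 2013 ZT16 replicate 2, 10 members were called in natural 2013 instead of 16.

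Among the degradation genes in the outdoor evening, BAM3 was lower in 2013 (-1.19 ± 0.11, adjusted p = 1.62e-08) and 2014 (-0.90 ± 0.10, adjusted p = 3.56e-07), and so was MEX1 (-0.59 ± 0.16, adjusted p = 0.00645 and -0.70 ± 0.16, adjusted p = 0.00102). PGLCT (-0.38 ± 0.10, adjusted p = 0.00538) and PWD (-0.34 ± 0.12, adjusted p = 0.041) were lower in 2013, the PWD call being lost without replicate 2 or 3 of natural 2013 or replicate 1 or 3 of lab LD at ZT16 (adjusted p between 0.067 and 0.142, edgeR). PHS2 (-0.78 ± 0.11, adjusted p = 4.34e-06) and ISA3 (-0.67 ± 0.11, adjusted p = 4.66e-05) were lower in 2014. LSF1 was higher in 2013 (0.69 ± 0.14, adjusted p = 4e-04), and BAM9 (0.59 ± 0.17, adjusted p = 0.00706) and AMY3 (0.43 ± 0.13, adjusted p = 0.0128) in 2014. The AMY3 call was lost without natural 2014 ZT16 replicate 1 or lab LD ZT16 replicate 3 (adjusted p = 0.0834 and 0.061, edgeR). GWD1 (0.06 ± 0.13 and -0.06 ± 0.13) and DPE2 (-0.06 ± 0.15 and -0.22 ± 0.14) did not pass in either year.

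**Figure D4:**
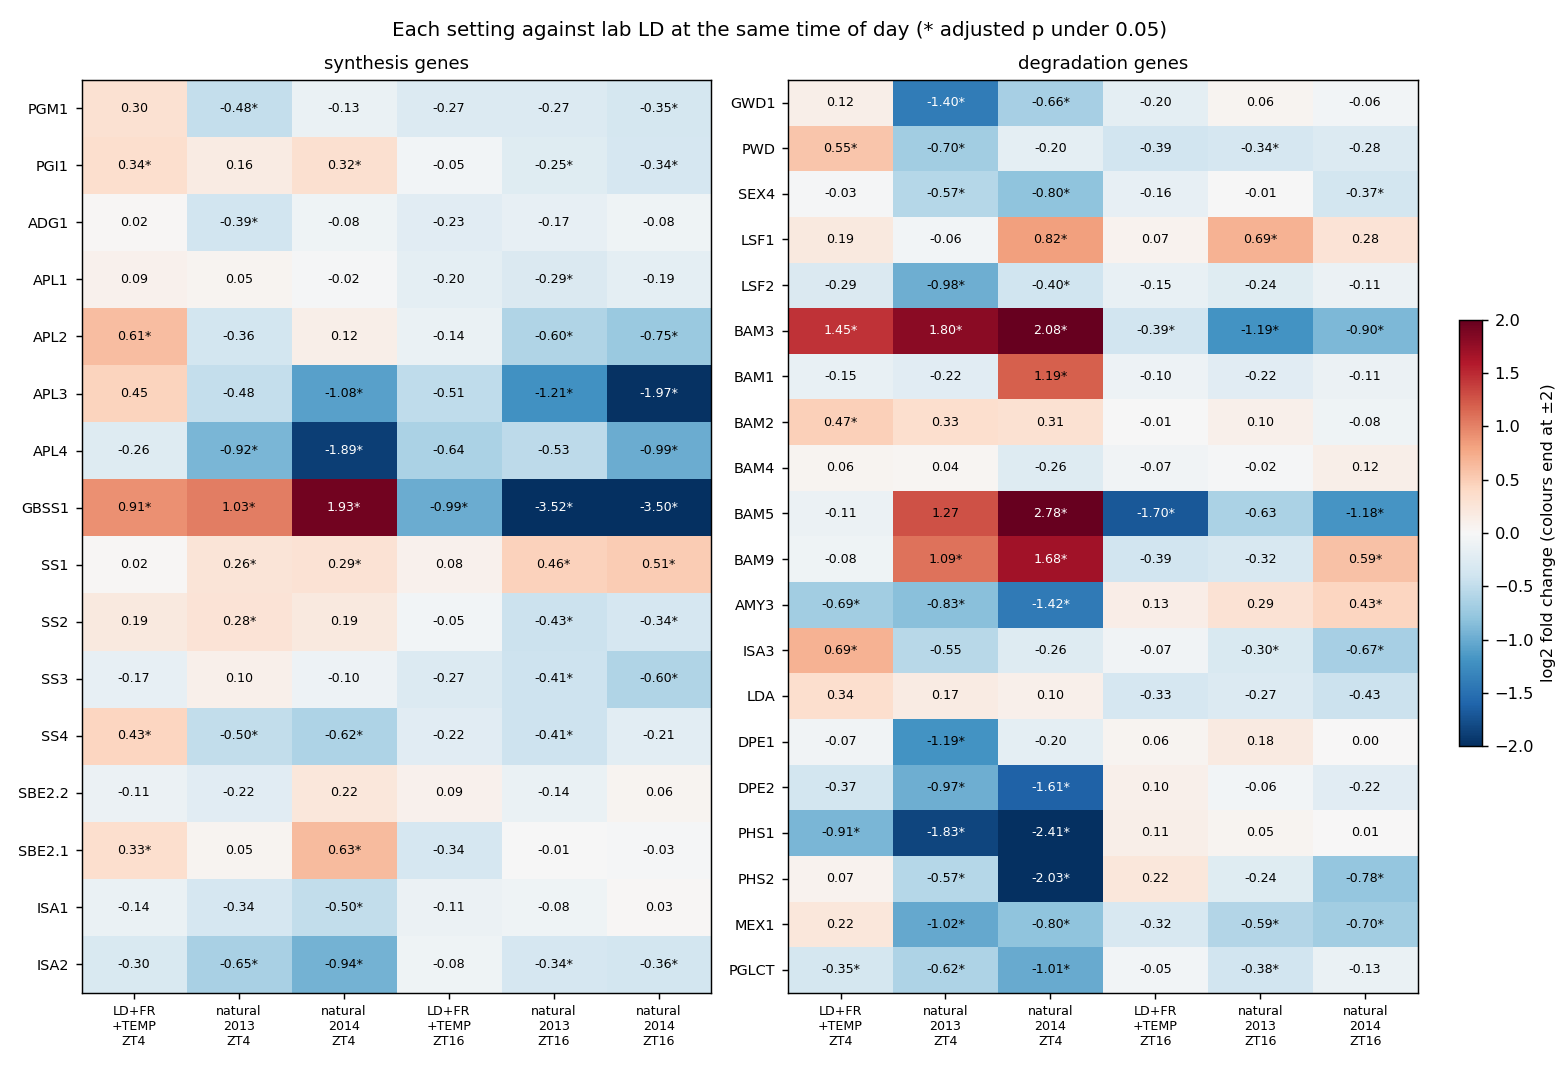
Log2 fold change against lab LD at the same time of day (colour and printed value) for the synthesis and the degradation genes, with an asterisk where the adjusted p was under 0.05; the left 3 columns of each panel are ZT4 and the right 3 are ZT16. PHS1 runs from -0.91 to -2.41 at ZT4 and from 0.01 to 0.11 at ZT16, and BAM3 is higher at ZT4 and lower at ZT16 in each setting.

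Between the outdoor years, more members were called in the morning than in the evening, as was the case over all genes. At ZT4, 13 members were higher and 5 lower in natural 2014 than in natural 2013 (18 called; all genes 16.5% and 14.5%, together 31%), and at ZT16, 1 was higher and 2 lower (all genes 2.82% and 2.33%, together 5.16%). From synthesis, GBSS1 (0.90 ± 0.15, adjusted p = 4.61e-05), SBE2.1 (0.58 ± 0.12, adjusted p = 0.000624), SBE2.2 (0.44 ± 0.10, adjusted p = 0.0018) and ADG1 (0.30 ± 0.11, adjusted p = 0.0433) were higher in the 2014 morning. The ADG1 call was lost without any natural 2013 ZT4 replicate or natural 2014 ZT4 replicate 1 or 3 (adjusted p between 0.058 and 0.213, edgeR).

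BAM1 (1.42 ± 0.16, adjusted p = 2.03e-07), LSF1 (0.88 ± 0.15, adjusted p = 3.81e-05), DPE1 (0.99 ± 0.20, adjusted p = 0.00031) and LSF2 (0.58 ± 0.14, adjusted p = 0.00207) had the smallest adjusted p among the degradation genes higher in the 2014 morning. GWD1 was higher as well (0.74 ± 0.19, adjusted p = 0.00334). BAM3 (0.28 ± 0.10, adjusted p = 0.0391) overlapped between the years, fell to 0.15 without natural 2014 ZT4 replicate 2 (adjusted p = 0.307), and missed the threshold without natural 2013 ZT4 replicate 2 or 3 or natural 2014 ZT4 replicate 3 (adjusted p between 0.0548 and 0.204, edgeR). PHS2 (-1.46 ± 0.14, adjusted p = 2.05e-08), PGLCT (-0.39 ± 0.10, adjusted p = 0.0055), PHS1 (-0.57 ± 0.15, adjusted p = 0.00575) and DPE2 (-0.64 ± 0.19, adjusted p = 0.0114) were lower in 2014. The PHS1 libraries of the years overlapped. PHS1 and PGLCT were each lost without natural 2014 ZT4 replicate 2 (adjusted p = 0.0546 and 0.0506), and DPE2 without natural 2014 ZT4 replicate 1 or 2 (adjusted p = 0.0727 and 0.0746, edgeR). Without natural 2014 ZT4 replicate 1, BAM1 stood at 1.18 (adjusted p = 1.53e-06, edgeR) and 14 members were called instead of 18. MEX1 did not pass (0.23 ± 0.19). In the evening BAM9 was higher in 2014 (0.91 ± 0.18, adjusted p = 0.00375), and PHS2 (-0.54 ± 0.11, adjusted p = 0.00369) and SEX4 (-0.36 ± 0.11, adjusted p = 0.0485) were lower. SEX4 missed the threshold without natural 2013 ZT16 replicate 1 or 2 or any natural 2014 ZT16 replicate (adjusted p between 0.0803 and 0.208, edgeR). GBSS1 (0.02 ± 0.55), ADG1 (0.09 ± 0.11), GWD1 (-0.12 ± 0.13), BAM3 (0.29 ± 0.10), DPE2 (-0.16 ± 0.15) and MEX1 (-0.11 ± 0.16) did not pass.

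**Figure D5:**
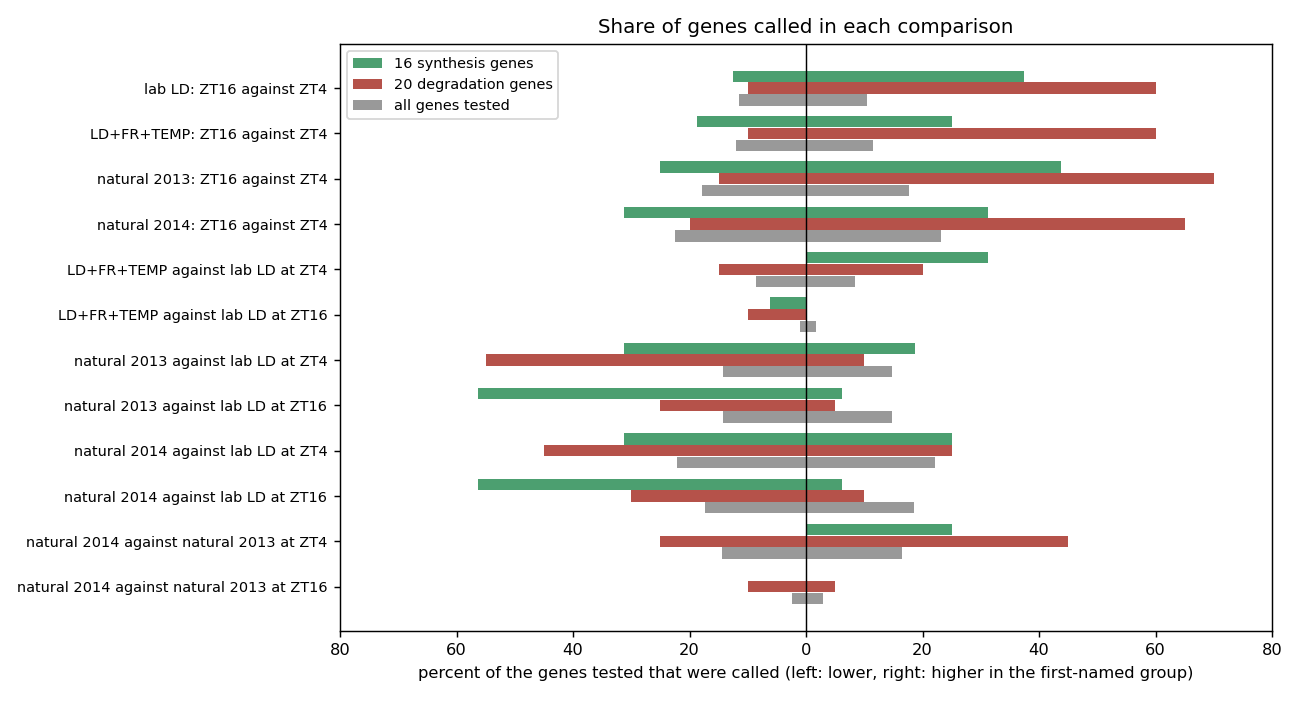
Share of the 16 synthesis genes, the 20 degradation genes and all 18797 genes tested that were called in each comparison, with lower calls to the left of 0 and higher calls to the right. In the 4 comparisons of ZT16 with ZT4 the degradation bars reach furthest to the right, with 12 to 14 of 20 genes, and in the outdoor mornings they reach furthest to the left, with 11 and 9 of 20 genes.

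Whether the change from morning to evening itself differed between settings was tested as an interaction. Against lab LD it was larger or more positive for 2 members and smaller or more negative for 7 in LD+FR+TEMP (9 called; all genes 2.15% and 2.09%, together 4.24%). Outdoors, with both years averaged, the counts were 10 and 11 (21 called; all genes 13.6% and 13.9%, together 27.5%). Between the outdoor years they were 3 and 6 (all genes 8.29% and 8.79%, together 17.1%).

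BAM3 had the smallest adjusted p of the degradation genes in both comparisons with lab LD, with an interaction of -1.84 ± 0.15, adjusted p = 2.61e-08 in LD+FR+TEMP and -2.98 ± 0.13, adjusted p = 1.79e-14 outdoors. GBSS1 held that place among the synthesis genes (-1.90 ± 0.25, adjusted p = 5.62e-05 and -4.99 ± 0.28, adjusted p = 8.52e-13). PHS1 (1.02 ± 0.16, adjusted p = 0.000384 and 2.15 ± 0.15, adjusted p = 2.48e-11) and AMY3 (0.82 ± 0.19, adjusted p = 0.0119 and 1.48 ± 0.17, adjusted p = 3.11e-07) had a more positive evening change in both. PWD (-0.94 ± 0.18, adjusted p = 0.00293), ISA3 (-0.76 ± 0.18, adjusted p = 0.0153) and SBE2.1 (-0.67 ± 0.15, adjusted p = 0.00987) had a less positive one in LD+FR+TEMP, the ISA3 call failing without lab LD ZT4 replicate 1 (adjusted p = 0.0749, edgeR). APL3 (-0.96 ± 0.26, adjusted p = 0.0302) and APL2 (-0.75 ± 0.22, adjusted p = 0.0479) passed there too. APL3 was lost without any 1 of 7 libraries (LD+FR+TEMP ZT4 replicates 1 and 3 and ZT16 replicates 1 and 2, lab LD ZT4 replicates 1 and 3 and ZT16 replicate 1; adjusted p between 0.0504 and 0.117, edgeR). APL2 was lost without any 1 of 10 of the 12 libraries, all but replicate 2 of both ZT4 groups (adjusted p between 0.0546 and 0.134, edgeR).

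Outdoors, the change from morning to evening was also more positive for DPE2 (1.14 ± 0.19, adjusted p = 3.54e-05), GWD1 (1.03 ± 0.17, adjusted p = 5.35e-05) and ISA2 (0.45 ± 0.14, adjusted p = 0.0213), the last of these lost without lab LD ZT4 replicate 2 or lab LD ZT16 replicate 1 or 3 (adjusted p = 0.061, 0.0683 and 0.0517, edgeR). It was more negative for BAM9 (-1.25 ± 0.20, adjusted p = 2.34e-05), BAM5 (-2.93 ± 0.53, adjusted p = 0.000124), BAM1 (-0.65 ± 0.19, adjusted p = 0.0138), PGI1 (-0.53 ± 0.11, adjusted p = 0.000361), SS2 (-0.62 ± 0.13, adjusted p = 0.00084) and SS3 (-0.50 ± 0.15, adjusted p = 0.0155). BAM1 and SS3 were each lost without lab LD ZT16 replicate 2 (adjusted p = 0.0627 and 0.0572, edgeR). The averaged BAM1 value came from natural 2014, since its change in natural 2013 was close to that in lab LD. From ZT4 to ZT16, BAM1 means went from 94.1 to 55.2 CPM in lab LD and 80.8 to 47.5 CPM in natural 2013. In natural 2014 they went from 215.5 to 51.1 CPM. In the outdoor interaction, ADG1 (0.11 ± 0.14) and MEX1 (0.26 ± 0.20) did not pass. In LD+FR+TEMP, ADG1 (-0.25 ± 0.16), GWD1 (-0.32 ± 0.18), DPE2 (0.47 ± 0.20) and MEX1 (-0.54 ± 0.22) did not pass.

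Between the outdoor years, the change from ZT4 to ZT16 was more positive in 2014 for PHS2 (0.92 ± 0.18, adjusted p = 0.000606), PGLCT (0.63 ± 0.14, adjusted p = 0.00265) and AMY3 (0.72 ± 0.23, adjusted p = 0.0273). It was more negative for LSF1 (-1.29 ± 0.20, adjusted p = 5.19e-05), BAM1 (-1.31 ± 0.23, adjusted p = 0.000201), DPE1 (-1.17 ± 0.23, adjusted p = 0.000654), GWD1 (-0.86 ± 0.23, adjusted p = 0.00912) and SBE2.1 (-0.59 ± 0.16, adjusted p = 0.0105). The LSF1 value is uncertain because of the overlap with CA1. AMY3 was lost without natural 2013 ZT4 replicate 2 or 3 or ZT16 replicate 2, or natural 2014 ZT4 replicate 1 or 2 or ZT16 replicate 1 or 2 (adjusted p between 0.0532 and 0.0869, edgeR). Without natural 2014 ZT4 replicate 1, BAM1 stood at -1.07 (adjusted p = 0.000625, edgeR). GBSS1 (-0.88 ± 0.59), ADG1 (-0.21 ± 0.16), BAM3 (0.00 ± 0.15), DPE2 (0.48 ± 0.24) and MEX1 (-0.34 ± 0.25) did not pass.

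Another 26 genes of starch metabolism were listed beside the members: further amylases, cytosolic isoforms, envelope transporters of sugar phosphates and ATP, and regulators. All 26 were tested. At ZT16 against ZT4, 2 were higher and 3 lower in lab LD (21.9% of all genes were called in either direction), 2 and 6 in LD+FR+TEMP (23.5%), 3 and 11 in natural 2013 (35.5%), and 3 and 13 in natural 2014 (45.7%). The plastid ATP importers were lower in the evening, NTT1 in both outdoor years and NTT2 in lab LD, LD+FR+TEMP and natural 2014. Their values in the other settings are not given here. NTT2 dropped from 165.6 ± 5.59 CPM (SD, n = 3) in the morning to 118 ± 8.53 CPM in the evening in lab LD (-0.49 ± 0.09 as log2 fold change, adjusted p = 0.000121), and passed in LD+FR+TEMP (-0.69 ± 0.09, adjusted p = 9.68e-07) and natural 2014 (-1.03 ± 0.09, adjusted p = 3.11e-10). NTT1 dropped from 130.4 ± 21.8 to 29.9 ± 3.78 CPM in natural 2014 (-2.13 ± 0.12, adjusted p = 1.81e-13), and at 57.9 ± 2.51 and 24.3 ± 2.19 CPM in natural 2013 (-1.25 ± 0.13, adjusted p = 1.73e-08). AT4G32190 was lower in the evening in lab LD (-1.23 ± 0.15, adjusted p = 8.23e-07), LD+FR+TEMP (-1.45 ± 0.16, adjusted p = 9.45e-08) and natural 2013 (-1.43 ± 0.18, adjusted p = 7.11e-07).

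BAM6, a β-amylase gene, was higher in the evening in lab LD (1.71 ± 0.27, adjusted p = 2.34e-05) and LD+FR+TEMP (0.94 ± 0.28, adjusted p = 0.0153). The cytosolic phosphoglucomutase PGM2 was higher in lab LD (0.38 ± 0.10, adjusted p = 0.00942). PTST1, which brings GBSS1 to the granule, was higher in LD+FR+TEMP (0.76 ± 0.19, adjusted p = 0.00454). BE1 (0.79 ± 0.24, adjusted p = 0.012) and PPA6, the plastid pyrophosphatase that draws ADP-glucose synthesis forward (0.25 ± 0.08, adjusted p = 0.019), were higher in natural 2013. AT3G55760 (0.75 ± 0.18, adjusted p = 0.000936) and AT5G03420 (0.81 ± 0.24, adjusted p = 0.00745) were higher in natural 2014.

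At ZT4 against lab LD, LD+FR+TEMP had 5 of the 26 higher and 1 lower (16.9% of all genes called in either direction), with 3 and 5 in natural 2013 (29%), and 10 and 4 in natural 2014 (44.3%). TPT, the triose phosphate translocator that competes with starch synthesis for carbon, was lower in LD+FR+TEMP (277.7 ± 48.5 CPM against 428.8 ± 71 CPM, -0.63 ± 0.15, adjusted p = 0.00561) and natural 2014 (250.7 ± 20.2 CPM, -0.77 ± 0.15, adjusted p = 0.000219). GPT1, a glucose-6-phosphate importer of plastids, was lower in natural 2013 (-0.87 ± 0.16, adjusted p = 0.000213) and natural 2014 (-0.67 ± 0.16, adjusted p = 0.00147). NTT1 was higher in LD+FR+TEMP (0.53 ± 0.12, adjusted p = 0.00289) and natural 2014 (1.53 ± 0.12, adjusted p = 1.56e-10). NTT2 was higher in both as well (0.36 ± 0.09, adjusted p = 0.00524 and 0.88 ± 0.09, adjusted p = 9.58e-09). In natural 2013, AT1G42430 (0.93 ± 0.10, adjusted p = 1.85e-07) and BAM8 (0.57 ± 0.13, adjusted p = 0.00134) were higher and AT5G03420 was lower (-0.97 ± 0.23, adjusted p = 0.0021). At ZT4, 10 of the 26 were higher in natural 2014 than in natural 2013 (16.5% of all genes were higher), led by NTT2 (0.89 ± 0.09, adjusted p = 2.57e-08) and NTT1 (1.17 ± 0.12, adjusted p = 4.19e-08).

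At ZT16 against lab LD, 3 were higher and 8 lower in natural 2013 (29.1% of all genes called in either direction) and 4 and 8 in natural 2014 (35.8%). AT1G42430 (0.61 ± 0.10, adjusted p = 5.46e-05 and 0.68 ± 0.10, adjusted p = 6.75e-06) and PPA6 (0.44 ± 0.08, adjusted p = 0.000254 and 0.41 ± 0.08, adjusted p = 0.000364) were higher in 2013 and 2014. The α-amylase gene AMY2 (-0.91 ± 0.17, adjusted p = 0.00032) and NTT1 (-0.64 ± 0.13, adjusted p = 0.000486) were lower in 2013. HXK1, a hexokinase and glucose sensor, was lower in 2014 (-1.01 ± 0.22, adjusted p = 0.00102). GPT2, a relative of GPT1, had a mean of 0.16 CPM in natural 2014 and 1.61 CPM in lab LD at ZT16 (-3.26 ± 0.77, adjusted p = 0.00178).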

How the data were processed

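Polyadenylated RNA of whole seedlings was read from the 3′ end in 24 libraries, and the authors deposited raw read counts for 48359 transcript models per library. Per the submitters' processing notes, bcl2fastq 2.17.1.14, Trimmomatic 0.36, Bowtie2, edgeR and genome build TAIR10 were used. The counting step and its strand setting are not given in the sources used here. The other deposited table, with 24 columns of normalized values, was not used.

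Counts were summed over the transcript models of each of 27655 loci. Genes passing filterByExpr (minimum count 10, minimum total 15) were scaled by TMM and fitted together, with 1 mean per group, by edgeR 4.0.16 (quasi-likelihood F test, R 4.3.3). P-values were adjusted after Benjamini and Hochberg over 18797 genes, with a threshold of 0.05. Standard errors were obtained from the log2 fold change and its F value (|log2 fold change|/√F). For large changes on few reads, as for GBSS1 outdoors at ZT16, they understate the error. The script was tested on simulated data. 3′ tags do not allow levels of different genes to be compared. The library with the smallest total held 6543615 counts, which limits precision for scarce transcripts.

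In each comparison, values were given for up to 4 higher and 4 lower members of each class with the smallest adjusted p, and always for GBSS1, ADG1, GWD1, BAM3, DPE2 and MEX1. Members holding the smallest adjusted p of their class and direction, and these 6, were given in every library. Of the 26 other genes, up to 2 in each direction were named, with further values where a neighbouring comparison named them. Members and lists were chosen with earlier results of these data known. Alternatives were RLE scaling, no filter, a mean of at least 5 CPM, DESeq2 1.42.0, limma-trend (limma 3.58.1), a fit of the compared groups alone, a replicate block, thinned libraries and each library left out.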

Additional observations from a re-analysis of the deposited data

Results flagged for a closer look

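These results stood out because a test of the difference itself, the interaction of time of day with growth setting (edgeR quasi-likelihood test), passed the threshold. Each value is a log2 difference, namely the change from ZT4 to ZT16 in the first-named setting minus that in the other. Against lab LD, the change in LD+FR+TEMP differed for 9 members. It was more negative for BAM3 (-1.84), GBSS1 (-1.90), APL3 (-0.96), PWD (-0.94), ISA3 (-0.76), APL2 (-0.75) and SBE2.1 (-0.67). It was more positive for PHS1 (1.02) and AMY3 (0.82).

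Against lab LD, the change outdoors, averaged over both years, differed for 21 members. Among synthesis genes it was more negative for GBSS1 (-4.99), APL3 (-0.80), SS2 (-0.62), APL2 (-0.56), PGI1 (-0.53), SS3 (-0.50) and SBE2.1 (-0.36), and more positive for ISA2 (0.45). Among degradation genes it was more negative for BAM3 (-2.98), BAM5 (-2.93), BAM9 (-1.25) and BAM1 (-0.65). It was more positive for PHS1 (2.15), AMY3 (1.48), DPE2 (1.14), GWD1 (1.03), PHS2 (0.79), DPE1 (0.78), PGLCT (0.55), LSF2 (0.52) and SEX4 (0.50). The average need not hold in each year. For BAM1 and SBE2.1 the change in natural 2013 was close to that in lab LD. From ZT4 to ZT16, SBE2.1 means went from 13.6 to 48.3 CPM in lab LD and 14 to 47.8 CPM in natural 2013. In natural 2014 they went from 20.9 to 47.4 CPM. For DPE1 it was the change in natural 2014 that was close to that in lab LD. Its means went from 7.89 to 30.5 CPM in lab LD and 6.95 to 30.4 CPM in natural 2014. In natural 2013 they went from 3.55 to 34.5 CPM. PGLCT means went from 112.3 to 99.5 CPM in lab LD and 73.2 to 76.4 CPM in natural 2013. In natural 2014 they went from 56 to 90.6 CPM. APL2 and SBE2.1 were each lost without any 1 of 13 of the 18 libraries (adjusted p between 0.0507 and 0.172, and between 0.0522 and 0.163), APL3 without natural 2014 ZT4 replicate 3 or lab LD ZT16 replicate 1 (adjusted p = 0.0572 and 0.0739), and LSF2 without lab LD ZT4 replicate 3 (adjusted p = 0.0515, edgeR).

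Natural 2014 differed from natural 2013 for 9 members. The change was more negative in 2014 for BAM5 (-2.05), BAM1 (-1.31), LSF1 (-1.29, uncertain because of the overlap with CA1), DPE1 (-1.17), GWD1 (-0.86) and SBE2.1 (-0.59). It was more positive for PHS2 (0.92), AMY3 (0.72) and PGLCT (0.63). Without natural 2014 ZT4 replicate 1, BAM5 stood at -1.73 (adjusted p = 0.057, edgeR) and 7 of the members were called.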

How the results depend on the processing

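Of 8404 values of single members recomputed under the alternatives, 8015 kept their side of the threshold, 292 lost their call and 97 gained 1. Of the values called in either fit, 0 turned direction. The direction of values called in neither was not compared, and small ones among them did change sign. Leaving out a library accounted for 203 of the lost and 45 of the gained calls. In LD+FR+TEMP against lab LD at ZT4, the count of called members went from 12 to 6 when the fit held only the groups compared, and in natural 2014 against natural 2013 at ZT16 it went from 3 to 6. In LD+FR+TEMP against lab LD at ZT16, it was 5 with DESeq2 and between 1 and 4 with a library left out, with 1 without LD+FR+TEMP replicate 1 or 2 or lab LD replicate 2. In natural 2013 against lab LD at ZT16, it was between 10 and 14 with a library left out, against 16. The fits restricted to the compared groups hold fewer samples. The cause was not tested for any of these moves.

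The labels do not say whether replicate numbers pair the samples. With 3 libraries a group, a check by correlation cannot decide it. Of 36 correlations of deviations between same-numbered libraries, 5 were over 0.1, and the range was -0.12 to 0.21. Between LD+FR+TEMP and lab LD they were 0.11, 0.08 and 0.13 at ZT4 and 0.11, 0.21 and 0.01 at ZT16. With the replicate number as a block, 22, 21, 27 and 27 members were called between the times of day in lab LD, in LD+FR+TEMP and outdoors in 2013 and 2014. Against lab LD the block gave 12 and 2 for LD+FR+TEMP, 20 and 16 for natural 2013, and 23 and 18 for natural 2014, at ZT4 and ZT16. Between the years it gave 17 and 2, and for the 3 interactions 8, 21 and 9. Outdoor libraries were shallower than indoor ones, which limits scarce transcripts such as GBSS1 at ZT16; thinned to the smallest total, the GBSS1 difference between LD+FR+TEMP and lab LD at ZT16 had an adjusted p of 0.0598 (edgeR).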
